A study of Rattus norvegicus with 12 samples.

Results

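Slc7a11 encodes xCT, the transport subunit of system xc-, and it was followed here in the lungs of silica-exposed and saline-treated rats. The gene was read through 2 probes of the 51255 on the array. They are the probes that carry its symbol in the study's list of day-28 probes. In that list 1099 gene symbols were readable, of which this is 1. Since the list was drawn up on the day-28 arrays, the day-28 signals of both probes chose them and are given without a test. The day-14 arrays were not used for the list and were tested. The gene was picked from the list with earlier results of these data known, and the day-14 p-values do not allow for that. Only 1279 of the 2275 rows of the list were readable, so further probes for the gene may exist on the array and were not analysed here.

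RNA came from whole lung of male Wistar rats in 4 groups of 3 arrays each. Rats of the model group had received 1 mL of silicon dioxide at 50 mg/mL into the trachea, rats of the control group 1 mL of saline, and lungs were taken on day 14 or day 28. The titles give the doses as 0 and 50 mg/kg instead. The day-14 samples carry day 14 in title and time point, while their description and treatment text speak of day 28. The published methods describe only the day-28 rats, with the individual rat as the unit and lungs picked for arrays by their tissue changes. No other allele or agent is named, ages are not given in the sources used here, and for the day-14 arrays nothing beyond separate labels shows that replicates were separate rats.

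System xc- carries cystine, the oxidised dimer of cysteine, into the cell in exchange for glutamate. Imported cystine is reduced to cysteine, the amino acid that limits the making of glutathione, the main soluble thiol antioxidant. The transport chain xCT is held in the membrane by a heavy chain, the product of Slc3a2, and its gene is known as a target of the transcription factors NRF2, which answers oxidants, and ATF4, which answers amino acid shortage. Crystalline silica is taken up by lung macrophages and is a classic source of oxidant stress in the lung.

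Both probes are annotated to chromosome 2. The annotation that came with them names no genome build, so no position is given. The sequences are shown because every value below is a hybridisation signal on one of them, and the probes behaved unequally. Each was the same in the scanner output and in the study's list.
CUST_R2_12064: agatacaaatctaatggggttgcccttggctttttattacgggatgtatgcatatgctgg
A_64_P041166: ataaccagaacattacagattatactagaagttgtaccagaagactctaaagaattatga
Each has 60 bases. Probe CUST_R2_12064 has a GC content of 41.7% and shares no run longer than 13 bases with any of 51253 other probes on the array. Probe A_64_P041166 has a GC content of 30.0% and a longest shared run of 14 bases. The longest run common to the pair is 5 bases, so they read different stretches of sequence.

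Slc7a11 signal was high in every silica-exposed lung and low in every saline lung on both days by probe CUST_R2_12064. Values are log2 processed scanner intensities, quantile normalised over the 12 arrays. Saline lungs at day 14 gave 4.95, 4.12 and 4.27 in replicates 1, 2 and 3. Silica lungs at day 14 gave 9.68, 7.63 and 8.0. No saline array reached the lowest silica array, and replicate 1 stood well above the other silica replicates. At day 28, saline lungs gave 4.26, 5.37 and 4.96, and silica lungs gave 9.26, 9.28 and 9.46. The 3 silica arrays of day 28 lay close together and far above all saline arrays of either day. This probe was well above background, by the scanner's own flag, on all 12 arrays, and on none was any probe saturated. Its saline signals were dim all the same. The dimmest probes well above background gave 3.66, 3.62 and 3.92 on the saline arrays of day 14. On those of day 28 they gave 4.14, 3.66 and 3.56. Differences of this probe from saline thus start from signals not far above that limit.

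Ordered by mean, Slc7a11 stood highest in silica lung at day 28 (9.33 ± 0.11, SD, n = 3), followed by silica lung at day 14 (8.44 ± 1.09, SD, n = 3). The 2 silica groups overlapped, because day-14 replicate 1 exceeded every day-28 array. Saline lung came next, at day 28 (4.86 ± 0.56, SD, n = 3) and at day 14 (4.45 ± 0.44, SD, n = 3), and these also overlapped. On the scanner's linear scale the mean processed intensity of this probe was 25.4 in saline and 385 in silica lung at day 14, and 33.8 and 609 at day 28. The rise from day 14 to day 28 was 0.90 on the log2 scale in silica and 0.42 in saline lung. It holds the contrast that chose the probe and so carries no test. The silica arrays of day 14 and day 28 also lay on different slides, so day and slide cannot be told apart there.

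**Figure D1:**
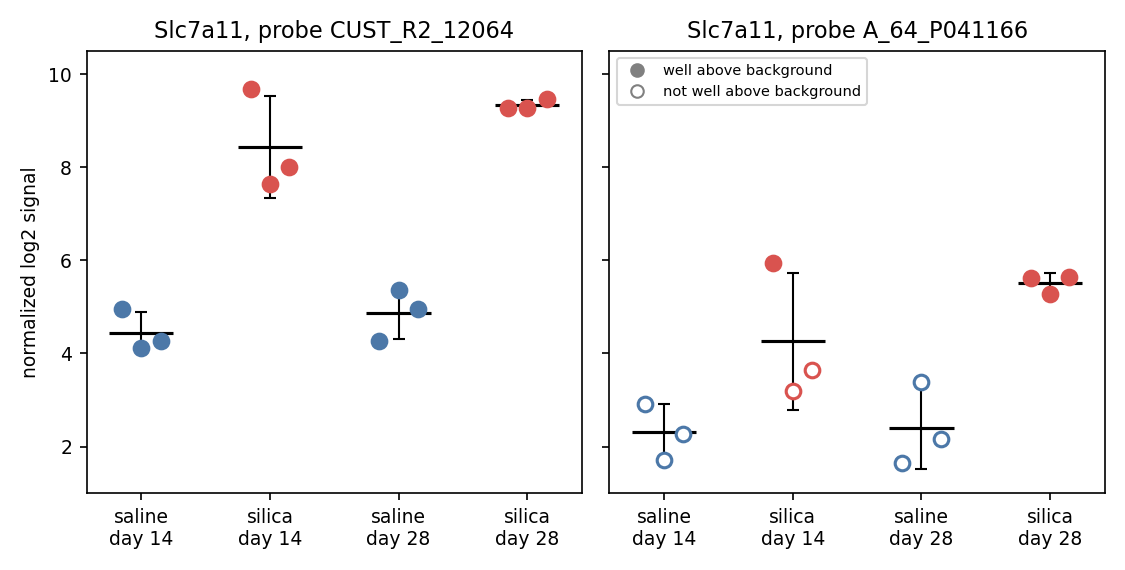
Normalised log2 signal (vertical axis) of each Slc7a11 probe in the 4 groups, 1 point per array in replicate order, with the group mean (horizontal bar) and SD (whiskers, n = 3). Open points were not well above background: by probe CUST_R2_12064 all silica arrays lie above all saline arrays, and by probe A_64_P041166 no saline array was well above background.

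The day-14 comparison asked whether the gene had risen in the earlier lungs, which were not used for the list that names its probes. By probe CUST_R2_12064, Slc7a11 rose by 3.99 on the log2 scale (SE 0.51, n = 3 against 3), a 15.9-fold difference, with a 95% interval of 2.79 to 5.19 and a Benjamini-Hochberg adjusted p of 0.0095 in limma over 33616 probes. A probe was called where its adjusted p did not exceed 0.05 and its change reached 2-fold. Among all tested probes 2.65% were called higher, and only 24 rose by more than this one. All 3 silica arrays exceeded all 3 saline arrays, as they did for 15.5% of tested probes. An exact two-sided permutation test of the 3 arrays against 3 gave p = 0.1, the smallest that this design allows.

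The call was lost without 1 control lung and with dim probes entered in the fit. Without saline day-14 replicate 2 the difference was 3.83 and the adjusted p 0.059, which missed the threshold, and without silica replicate 1 the difference was 3.37. With no filter on dim probes the limma adjusted p was 0.054. With a model-based background correction (normexp) the difference shrank to 2.23 and the call was kept (limma adjusted p = 0.015). That setting adds 50 to every intensity, which by itself shrinks the differences of dim probes, here and wherever normexp is named below. Over all processing alternatives the limma adjusted p lay between 6e-04 and 0.059.

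Day 28 gave a difference of 4.47 on the log2 scale for the same probe, 22.1-fold (limma SE 0.27, n = 3 against 3), placed 27th from the top among 32097 probes. This is the contrast that selected the probe, so the value is a description. The 12 arrays came from 2 slides, and slide 1 held the 3 silica arrays of day 28 with saline replicate 1, the lowest of its group. Within that slide the difference was 5.07. It rests on a saline signal of 4.26, where the dimmest probe well above background on that array gave 4.14. The silica-saline difference was 0.48 larger at day 28 than at day 14. This gap ran from 0.072 without silica day-14 replicate 2 to 1.10 without silica day-14 replicate 1. All day-14 arrays lay on the other slide, and with the slide in the model the gap was 1.08.

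Probe A_64_P041166 gave weak signals, most of them near background. Saline lungs at day 14 gave 2.92, 1.72 and 2.28 in replicates 1, 2 and 3, and silica lungs 5.94, 3.18 and 3.65. None of the saline arrays was well above background, and among the silica arrays only replicate 1 was. At day 28, saline lungs gave 1.65, 3.38 and 2.15, none well above background, and silica lungs 5.63, 5.27 and 5.64, all well above it. Within each day the silica arrays lay above the saline arrays, although saline day-28 replicate 2 exceeded silica day-14 replicate 2. The same separation held for 15.5% of tested probes at day 14 and 23.6% of probes at day 28. At day 14 it rests mostly on signals not well above background, and the day-28 contrast chose the probe.

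Since the saline lungs give only an upper limit here, the day-28 change by probe A_64_P041166 is a bound. Against a floor set on each array by the dimmest probe well above background, the main processing gave a signal at least 3.31-fold higher in silica lung at day 28. The bound holds for that processing only, and with normexp the day-28 difference was 0.72 on the log2 scale. No bound is given for day 14, where only silica replicate 1 was well above background. The measured group means differed by 1.95 at day 14, from 2.31 ± 0.60 to 4.26 ± 1.47 (SD, n = 3), and by 3.12 at day 28, from 2.40 ± 0.89 to 5.51 ± 0.21 (SD, n = 3). At day 14 the probe did not enter the fit, which required a signal well above background on all 3 arrays of a group, and with every probe entered its limma adjusted p was 0.25.

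On both probes the highest array of all 12 was silica day-14 replicate 1. In the tightly spaced silica lungs of day 28, the only group with all arrays well above background on both probes, replicate 3 was highest on both and the other two changed places. The order of replicates in the other groups cannot be compared between the probes, because probe A_64_P041166 was mostly not well above background there.

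**Figure D2:**
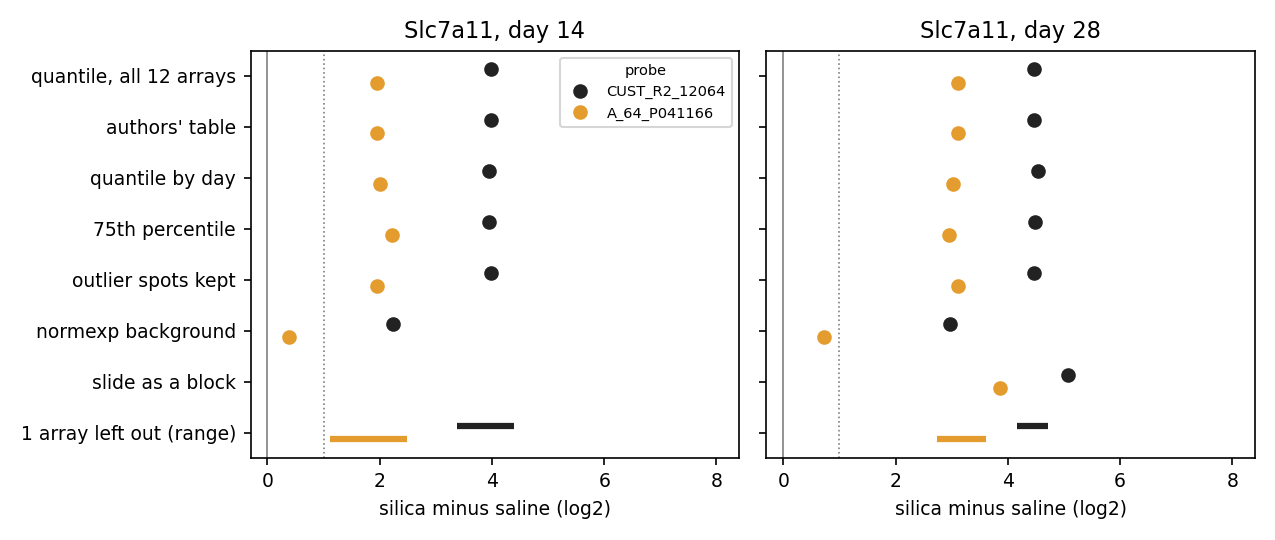
Silica minus saline difference of each Slc7a11 probe (horizontal axis, log2 units; solid line at 0, dotted line at a 2-fold change) at day 14 and day 28 under each processing alternative, with bars for the range when 1 array is left out. The difference of probe CUST_R2_12064 lies above 2-fold throughout, and that of probe A_64_P041166 falls below 2-fold with the normexp background, to 0.39 at day 14 and 0.72 at day 28.

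Genes around system xc- were taken from 4 lists of 62 genes in all, chosen with earlier results of these data known, of which 25 had a readable symbol. The heavy chain gene Slc3a2, the glutathione synthesis genes Gclc and Gclm, and Nqo1 and Txnrd1 were not analysed here. At day 14, 11 of the 25 rose and 3 fell, against 2.65% and 2.34% of all tested probes and against 313 and 206 of the 1236 tested probes that carry a name. The named genes come from the study's day-28 list, so their day-28 direction is fixed by that choice: for 20 of them every silica array of day 28 lay above every saline array, and for 5 below, as for 23.6% and 24.2% of probes. Without saline day-14 replicate 2 only 4 of the 25 rose and none fell, and with normexp 6 rose. Pgd kept its call in all 14 alternatives run, Hmox1, Srxn1 and Aldh1l2 in 13, and Slc36a3 in 5.

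Of 7 amino acid transporter genes other than Slc7a11, 3 rose at day 14, none fell, and the median difference was 1.05 on the log2 scale, where the median of all tested probes was -0.011. Slc7a7, the light chain of a cationic and neutral amino acid exchanger of the same family, rose by 1.68 (adjusted p = 0.012). Slc36a1, a proton-coupled exporter of small amino acids from lysosomes, rose by 1.05 (adjusted p = 0.012), and its relative Slc36a3 by 1.02 (adjusted p = 0.048). With normexp these differences were 0.75 and 0.24, below 2-fold. The saline signal of Slc36a3 was well above background on only 2 of 3 day-14 arrays. Slc7a8, a neutral amino acid exchanger of the same family, differed by 1.75 and missed the threshold (adjusted p = 0.051). Its saline signals were not well above background, and the bound with the main processing was at least 2.07-fold. With normexp its difference was 0.33 on the log2 scale. The glutamine carriers Slc1a5 and Slc38a1 differed by 0.62 and 0.55, below the 2-fold limit, and Slc38a6 by 1.18 (adjusted p = 0.061).

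Of 5 enzymes of cysteine and glutathione metabolism none rose and 3 fell at day 14, with a median difference of -1.19. Cdo1, the dioxygenase that removes cysteine by oxidising it, fell by 1.41 on the log2 scale (adjusted p = 0.021). The glutathione transferases Gstm7 and Gstm2 fell by 1.42 (adjusted p = 0.022) and 1.19 (adjusted p = 0.041). With normexp the difference of Gstm7 was -0.85, below 2-fold. Gpx1, the glutathione peroxidase of the cytosol, differed by 0.97 and the transferase Gsta4 by -0.72, both under the 2-fold limit. Members of this list therefore lay on both sides of 0, while Slc7a11 by probe CUST_R2_12064 was far above it.

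Of 8 genes in the list for NRF2, 5 rose, none fell, and the median difference at day 14 was 1.32. Srxn1, which repairs over-oxidised peroxiredoxins, rose by 2.96 (adjusted p = 0.0050). Its saline signal was well above background on only 1 of 3 arrays, and with normexp its difference was 0.98, below 2-fold. Hmox1, the inducible enzyme of haem breakdown, rose by 2.09 (adjusted p = 0.012). Pgd and Idh1, which make NADPH, rose by 1.44 (adjusted p = 0.0081) and 1.27 (adjusted p = 0.024), and the ferritin light chain gene Ftl1 by 1.36 (adjusted p = 0.014). With normexp the difference of Idh1 was 0.99, just below 2-fold. Nfe2l2, the gene of NRF2 itself, differed by 0.65 and the autophagy receptor gene Sqstm1 by 0.63, both under 2-fold. Ptgr1, a reductase of prostaglandins and alkenals, differed by -0.79 and did not pass.

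Of 5 genes tied to the amino acid response through ATF4, 3 rose, none fell, and the median difference at day 14 was 1.79. Aldh1l2, a mitochondrial folate enzyme, rose by 2.28 (adjusted p = 0.0048), the stress factor gene Atf3 by 1.86 (adjusted p = 0.015) and Gdf15, a secreted stress cytokine, by 1.79 (adjusted p = 0.011). Phgdh and Pycr1, which serve serine and proline synthesis, each differed by 0.90 and stayed below 2-fold. Slc7a11 is itself known as a target of this response. By probe CUST_R2_12064 its own difference at day 14 exceeded that of each gene in the list. By probe A_64_P041166, mostly not well above background, its difference was 1.95, below that of Aldh1l2. With normexp the difference of Aldh1l2 was 0.96, below 2-fold.

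**Figure D3:**
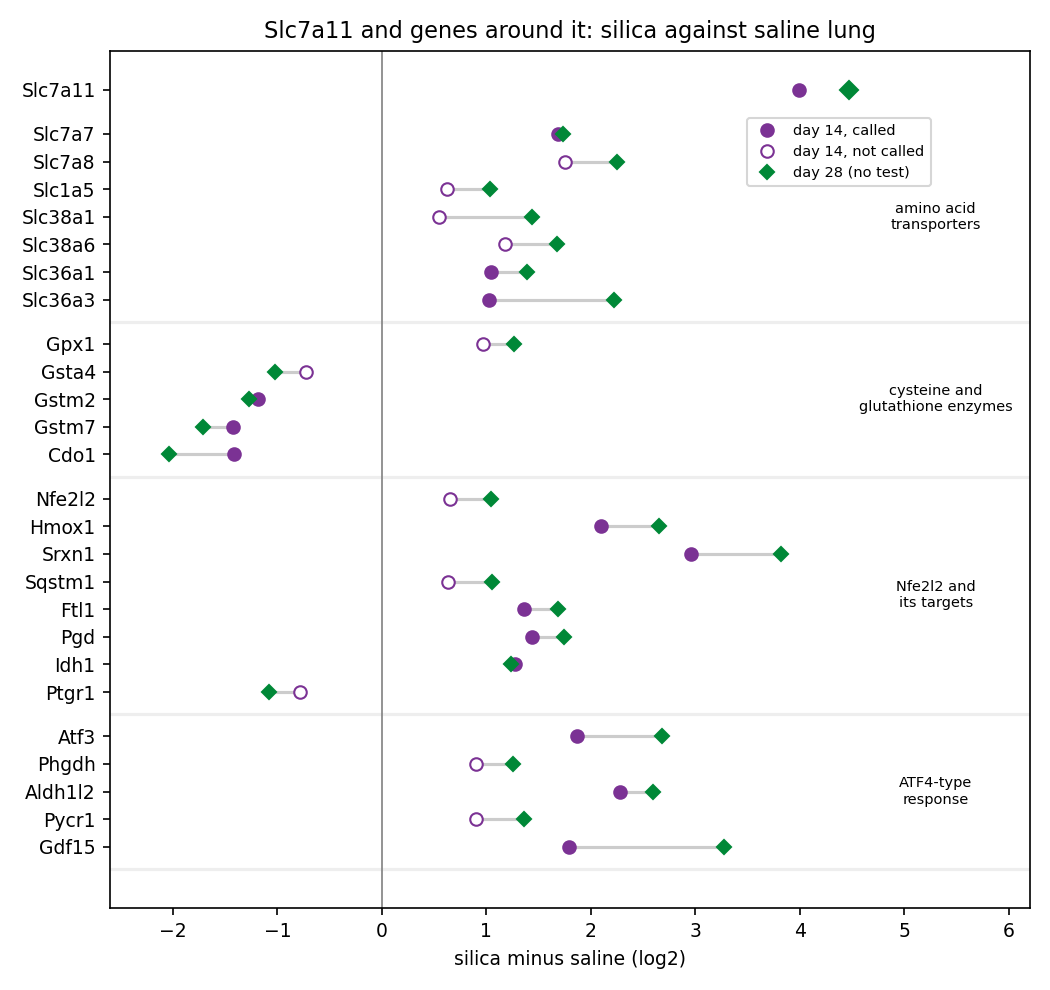
Silica minus saline difference (horizontal axis, log2 units) of Slc7a11, by probe CUST_R2_12064, and of the 25 genes from the 4 lists at day 14 (circles, filled where called by limma) and day 28 (diamonds, no test). Slc7a11 has the largest difference on both days as plotted, whereas with normexp at day 28 Gdf15 (3.003) exceeded it (2.978).

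Cell type markers moved in the same arrays, and in whole lung fewer cells of a type and less RNA per cell cannot be told apart. Of 12 macrophage genes 10 rose and none fell at day 14 (median difference 2.75), where 2.65% of all tested probes and 313 of 1236 named ones rose. Among them were the lipid receptor gene Trem2 (4.25, adjusted p = 0.0022) and the lysosomal glycoprotein gene Cd68 (2.82, adjusted p = 0.0037). The summed signal of the 12 ran from 6509 to 9532 in saline and from 33083 to 48479 in silica lung at day 14, and from 7993 to 8530 and from 52955 to 61996 at day 28. Of 5 lung epithelium genes none passed at day 14 (median difference -1.21), with sums of 13215 to 14915 in saline and 3196 to 8766 in silica lung, and at day 28 of 15015 to 17384 and 4415 to 8516. Of 6 endothelium genes 3 fell (median difference -1.10), where 2.34% of all tested probes and 206 of 1236 named ones fell, with sums of 23225 to 28345 against 8143 to 15449, and at day 28 of 30401 to 34725 against 8796 to 15398. The markers, too, could be read only where the study's day-28 list names them, so their separation at day 28 is fixed by that choice. That left 5 of 11 listed epithelium genes and 6 of 7 endothelium genes. No neutrophil marker had a readable symbol. The sums add linear signals, so the brightest genes weigh most. Among the endothelium genes this was Cdh5, with a mean log2 signal of 14.28 in saline lung at day 28. Among the macrophage genes it was Gpnmb, with 14.03 in silica lung at day 28.

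Silica day-14 replicate 1, the lung with the highest Slc7a11 of all on both probes, had the highest macrophage sum of its group (48479) and the lowest epithelium (3196) and endothelium (8143) sums. At day 28 the highest macrophage sum lay in silica replicate 1 (61996), which had the lowest Slc7a11 of its group by probe CUST_R2_12064. The silica lungs of that day lay close together on this probe, at 9.26, 9.28 and 9.46. In the other groups the macrophage sum and this probe put the replicates in the same order. This was not particular to macrophages. Silica day-14 replicate 1 also had the highest sum of its group for each of the 4 lists around system xc-, such as NRF2 (41744). The same held for lymphocyte (1402) and proliferation (2604) genes, while its fibroblast and smooth muscle sum (5015) was the lowest. The NRF2 sum gave the order of this probe in both day-14 groups. Without silica day-14 replicate 1 the difference of Slc7a11 at day 14 was 3.37. The silica lungs that remained had macrophage sums of 33083 and 35214, also above all saline lungs. Of the other lists, 2 of 3 lymphocyte genes and 4 of 5 proliferation genes rose at day 14, again against 2.65% of all tested probes and 313 of 1236 named ones, and none of 4 fibroblast and smooth muscle genes passed. The part of any cell type in the Slc7a11 signal was not tested.

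**Figure D4:**
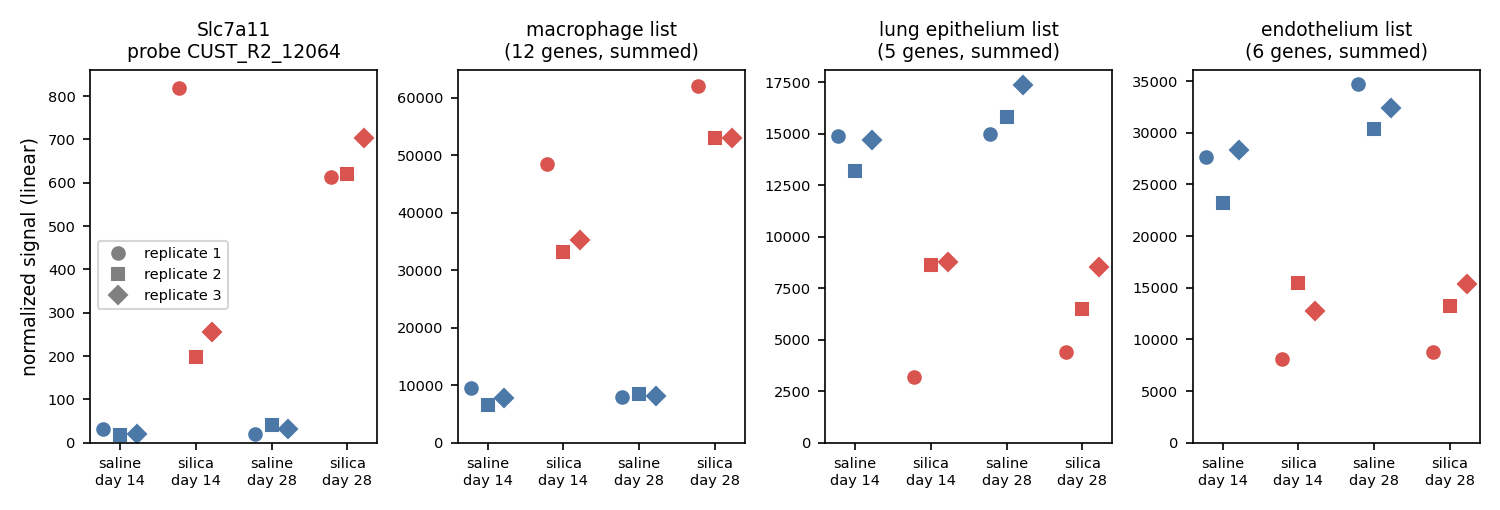
Linear normalised signal (vertical axes, each starting at 0) of Slc7a11 by probe CUST_R2_12064, and of the summed macrophage, lung epithelium and endothelium markers, 1 symbol per array and replicate. Slc7a11 and the macrophage sum are higher in every silica lung of a day than in every saline lung of that day, and the other sums are lower. All genes shown come from the study's day-28 list, so the separation at day 28 is fixed by that choice.

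Genes with the profile most like that of Slc7a11 were ranked by the root mean square difference of log2 signals over the 12 arrays, each probe centred on its own mean, among 1097 other named genes. The closest was Pla2g7, the secreted phospholipase that inactivates platelet-activating factor (0.36). Gpnmb, a glycoprotein of phagocyte lysosomes (0.47), Slc37a2, a sugar phosphate exchanger of macrophages (0.47), and Hk3, a hexokinase of blood cells (0.50), were also among the 5 closest. The median over all compared genes was 1.85, and the other Slc7a11 probe, at 0.90, would stand 36th. As the arrays fall into high silica and low saline clusters, the measure mostly ranks genes by a like-sized difference between those clusters.

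These 4 genes differed at day 14 by 3.22 for Pla2g7 to 3.97 for Gpnmb on the log2 scale, beside 3.99 for Slc7a11. At day 28 they differed by 3.76 for Hk3 to 4.20 for Pla2g7, beside 4.47 for Slc7a11. The choice of genes used these same arrays, so the differences are a description. The order of Gpnmb and Slc7a11 at day 14 turned with the scaling, at 4.18 against 3.95 with the 75th percentile and 3.88 against 2.23 with normexp. At day 28 with normexp, Gpnmb (4.06) and Pla2g7 (3.88) exceeded Slc7a11 (2.98). With the normexp background Psca, Folr2 and Capg entered the 5 closest and Hk3 stayed, while Pla2g7, Gpnmb and Slc37a2 left.

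**Figure D5:**
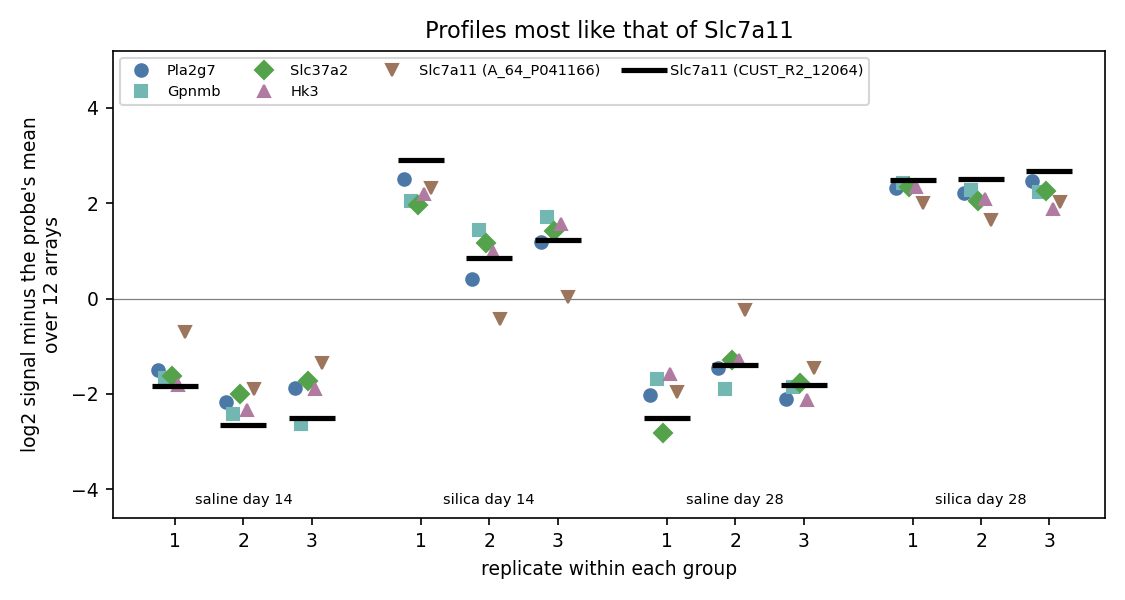
Log2 signal minus the probe's own mean over the 12 arrays (vertical axis) in each replicate of the 4 groups, for both Slc7a11 probes and 4 of the 5 genes closest to probe CUST_R2_12064. As plotted Pla2g7 is closest to it, with a root mean square difference of 0.36, and probe A_64_P041166 runs flatter. With normexp Pla2g7 is not among the 5 closest.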

How the data were processed

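Total RNA of 12 rat lungs was labelled with Cy3 and hybridised to single-colour Agilent arrays, and per the labels the scans were read with Agilent Feature Extraction 10.7.1.1. The deposited scanner files hold each spot's intensity, background-corrected by that software, beside unprocessed intensity and flags. The authors also deposited a table of quantile-normalised log2 signals, used as an alternative. Columns of the authors' own fold changes and p-values in the list that names the probes were not used.

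Spots of a probe were averaged without control spots and outliers, giving 51255 probes. Intensities were taken to log2 and then quantile normalised over 12 arrays. The day-14 contrast used limma 3.58.1 in R 4.3.3 on the 6 day-14 arrays, over 33616 probes well above background on all 3 arrays of a group, with Benjamini-Hochberg adjustment. Of several named probes of a gene, the brightest on average was used. The genes named were Slc7a11, all readable members of the 4 lists, and the 5 most similar profiles, of which 1 is not reported here. Of the macrophage and other marker lists, genes were named as examples after their values were seen. The members and lists were chosen with earlier results of these data known.

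Between 60.5% and 69.5% of probes were well above background, and replicates of a group correlated at 0.97 to 0.99. The number of arrays, 3 per group, limits the precision. The fit was tested on simulated data. Alternatives were another background correction, scaling by the 75th percentile, quantile by day, the authors' table, outlier spots kept, no filter, 1 fit of all 12 arrays, replicate and slide blocks, and each array left out.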

Additional observations from a re-analysis of the deposited data

How the results depend on the processing

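No difference of Slc7a11 or of the 30 other genes chosen by rule changed sign under any alternative run. With normexp the differences of probe A_64_P041166 moved to 0.39 at day 14 and 0.72 at day 28, that of probe CUST_R2_12064 at day 28 to 2.98, and the day-14 calls to 424 higher and 279 lower, 6 of them companion genes that rose. With no filter on dim probes, which enters 51255 in place of 33616 probes, the Slc7a11 difference of 3.99 missed the threshold (limma adjusted p = 0.054), with 337 probes called higher and 117 lower, and 4 and 0 companion genes. The unadjusted p with the fold limit called 1245 lower. The slide as a block and within slide 1 both gave 5.07 for probe CUST_R2_12064 at day 28, resting on saline replicate 1.

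With 1 array left out, probe CUST_R2_12064 differed by 3.37 to 4.39 at day 14 and 4.17 to 4.72 at day 28, and probe A_64_P041166 by 1.11 to 2.49 and 2.74 to 3.61. The gap between days ran from 0.072 to 1.10 and from 0.63 to 2.01. Calls ran from 280 (without saline replicate 2) to 940 higher and from 62 (without saline replicate 3) to 1431 lower, and companion genes from 4 to 13 and 0 to 3. The cause was not tested. With the replicate number as a block, Slc7a11 kept its call (limma adjusted p = 0.0040). The block lowered the SE of probe CUST_R2_12064 at day 14 from 0.51 to 0.27. Same-numbered day-14 arrays correlated at 0.025, -0.17 and 0.064, which gave no sign that the numbers paired the rats but cannot exclude it. The block called 884 probes higher and 736 lower. Signal near background limits probe A_64_P041166 most.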
